A study of Mus musculus with 9 samples.

Results

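The T cell receptor complex and its proximal signalling machinery were followed through 9 genes: the CD3 subunits Cd3e, Cd3d and Cd3g, the zeta chain Cd247, the coreceptor Cd4, the costimulatory receptor Cd28, the kinases Lck and Zap70, and the adaptor Lat. The members were chosen by symbol, and each matched 1 of the 39253 genes in the deposited table. All 9 passed the filter on low counts. Their Entrez identifiers are 12501 (Cd3e), 12500 (Cd3d), 12502 (Cd3g), 12503 (Cd247), 12504 (Cd4), 12487 (Cd28), 16818 (Lck), 22637 (Zap70) and 16797 (Lat). The 9 libraries came from mouse CD4+ T cells on day 9 of experimental autoimmune encephalomyelitis (EAE), a model of multiple sclerosis in which immunised mice develop inflammation of the brain and spinal cord. Batch 1 held 2 wildtype samples (wildtype 1 and 2) and 3 samples labelled as estrogen receptor alpha (ERα) knockout (knockout 1 to 3), and batch 2 held wildtype 3 and 4 and knockout 4 and 5. The series title concerns ERα in dendritic cells, but the sample labels leave unstated which cells carry the knockout, from which organ the T cells came, how old or of which sex the mice were, or whether samples came from separate animals. The p-values therefore measure the spread between these samples, which may be technical.

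The T cell receptor has no kinase activity of its own. When it binds peptide on a major histocompatibility molecule, Lck, which is carried on the tail of CD4, phosphorylates tyrosine motifs in the CD3 and zeta chains, ZAP-70 docks on these motifs, and ZAP-70 in turn phosphorylates LAT, the scaffold for calcium and Ras signalling. CD28 binds B7 molecules on antigen-presenting cells and adds the costimulatory signal. In EAE, CD4+ T cells specific for myelin antigens are the cells that transfer disease.

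Cd3g, Cd3d and Cd3e are consecutive genes on chromosome 9. By CPM each was lower in every library labelled knockout in batch 1 and higher in batch 2, as described further on. Their promoters are therefore shown here. Cd3d and Cd3g are transcribed away from each other from starts 1355 bases apart, and the start of Cd3e lies 27825 bases from that of Cd3d. The sequences are from RefSeq on build GRCm38.p6, 250 bases before to 50 bases after each start, 5′ to 3′ on the strand of the gene; capitals mark GGAA on either strand (written TTCC where it lies on the other strand), the core of the sites bound by ETS-family factors. Cd3e is at chr9:45009562-45009861 on the minus strand, Cd3d at chr9:44981536-44981835 on the plus strand, and Cd3g at chr9:44980382-44980681 on the minus strand.
Cd3e: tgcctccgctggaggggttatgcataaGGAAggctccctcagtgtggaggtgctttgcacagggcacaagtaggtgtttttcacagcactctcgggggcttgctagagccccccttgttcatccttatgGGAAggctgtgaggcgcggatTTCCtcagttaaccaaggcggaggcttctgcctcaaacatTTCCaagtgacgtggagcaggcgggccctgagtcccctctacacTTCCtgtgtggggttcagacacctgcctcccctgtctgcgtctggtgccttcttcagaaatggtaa
Cd3d: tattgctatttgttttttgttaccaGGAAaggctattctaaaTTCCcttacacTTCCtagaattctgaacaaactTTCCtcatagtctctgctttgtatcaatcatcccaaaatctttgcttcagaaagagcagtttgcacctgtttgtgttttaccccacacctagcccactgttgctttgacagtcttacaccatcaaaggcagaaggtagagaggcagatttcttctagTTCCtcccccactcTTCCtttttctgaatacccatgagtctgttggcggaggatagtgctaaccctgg
Cd3g: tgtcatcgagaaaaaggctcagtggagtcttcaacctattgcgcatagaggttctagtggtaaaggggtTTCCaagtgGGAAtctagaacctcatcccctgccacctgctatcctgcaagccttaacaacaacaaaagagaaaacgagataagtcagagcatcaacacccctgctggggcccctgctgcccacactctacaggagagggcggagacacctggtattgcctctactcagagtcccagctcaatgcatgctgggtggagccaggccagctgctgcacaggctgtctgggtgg
The promoter of Cd3d held 6 GGAA matches, that of Cd3e 5 and that of Cd3g 2, beside a median of 3 over the 32851 promoters of the table. Across the 7 members matched in that table, with 10 promoters between them, 9 promoters held GGAA, a motif found in 96.0% of all promoters. CANNTG, the E-box bound by basic helix-loop-helix factors, was in all 10 (72.3% of all promoters), and GATA was in 5 (57.9% of all promoters), each searched on both strands. A match describes letters in the window only. Of the other members, Cd28, Cd247 and Zap70 lie on chromosome 1, Lck on chromosome 4, Cd4 on chromosome 6 and Lat on chromosome 7.

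Estimated counts per library summed to between 4926347 and 11296593 in batch 1, and to between 45013017 and 69844721 in batch 2. Batch 1 also carried more signal from genes that T cells do not use: 1514 sensory receptor genes took 0.0577 to 0.256% of the counts there, highest in knockout 3, and 0.00258 to 0.00370% in batch 2. The mean value of such a receptor gene was at most 2.13% of the lowest member's in the same library. Esr1, the gene of ERα, had 101 and 76 counts in the wildtype and 9 and 14 in the knockout libraries of batch 2, but 55 and 80 against 72, 55 and 66 in batch 1, where it did not separate the labels. Every statement on batch 1 therefore concerns libraries labelled knockout. Xist and Ddx3y mark female and male cells. Ddx3y measured 55.4 CPM in knockout 3 and 93.6 to 107 CPM in batch 2, and was listed at 0 in the other 4 libraries of batch 1. Xist measured 30.4 CPM in knockout 3, 0 to 0.289 CPM in batch 2 and 1745 to 2680 CPM in those other 4 libraries. On both genes knockout 3 lay between the rest of batch 1 and batch 2, nearer to batch 2. Summed neutrophil markers were 228 to 606 CPM in batch 1 and 3.55 to 101 CPM in batch 2, and the CD8 markers Cd8a and Cd8b1 together stayed between 9.71 and 18.9 CPM, with Cd8a listed at 0 in wildtype 4, knockout 4 and knockout 5. Over all libraries, summed markers were 6.13 to 77.7 CPM for B cells, 13.5 to 31.2 for NK cells, 55.2 to 213 for monocytes and macrophages and 2.61 to 39.1 for dendritic cells, beside 2333 to 3391 CPM for Cd3e, Cd3d, Cd3g and Cd4 together.

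The members were among the well-measured genes of these cells, and between genotypes 0 of the 9 passed the threshold in any comparison with edgeR. Levels are given as CPM, counts divided by the library total and multiplied by 1000000, and comparisons as log2 fold changes from edgeR's quasi-likelihood test with Benjamini-Hochberg adjustment over all genes tested and a threshold of 0.05. In bulk RNA a lower value cannot be told apart from a smaller share of cells that express the gene. The 9 genes together took 0.345 to 0.494% of the counts of a library.

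Among the receptor subunits, Cd3e, whose product pairs with the delta and gamma chains, was the highest member by count in 8 of 9 libraries, with Cd4 above it in wildtype 4. It measured 1230 and 1235 CPM in wildtype 1 and 2 against 1071, 1077 and 1079 CPM in knockout 1, 2 and 3. In batch 2 it measured 1266 and 1285 CPM in wildtype 3 and 4 against 1471 and 1522 CPM in knockout 4 and 5. All knockout libraries lay below both wildtype libraries in batch 1 and above both in batch 2, and within each group the values were close. Cd3e had the smallest within-group standard deviation of the members, 0.017 on the log2(CPM + 1) scale. The members' median was 0.13, and that of the 9454 tested genes with a mean of at least 10 CPM was 0.21. The edgeR log2 fold change of Cd3e was -0.34 ± 0.36 (SE) in batch 1 with an adjusted p of 1.00, and 0.23 ± 0.09 in batch 2 with an adjusted p of 0.637. The spread behind these SEs is largely estimated from other genes, and is wider than that of Cd3e itself. An exact two-sided permutation test on the mean log2 value of Cd3e gave p = 0.1 in batch 1 and p = 0.333 in batch 2. These are the smallest values that 3 against 2 and 2 against 2 samples allow. The groups were already seen not to overlap, so this test adds no support.

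Cd3d, the delta chain, was the lowest CD3 subunit by count. Its values were 147 and 133 CPM for wildtype 1 and 2 and 123, 130 and 79.5 CPM for knockout 1, 2 and 3, then 174 and 163 CPM (wildtype 3 and 4) against 207 and 193 CPM (knockout 4 and 5) in batch 2. Knockout 3 stood apart at the low end, and the groups did not overlap in either batch, lower in the knockout in batch 1 and higher in batch 2. With TMM scaling factors applied to the CPM, the groups of batch 1 overlapped. Its log2 fold change was -0.45 ± 0.38 (SE) in batch 1 and 0.25 ± 0.11 in batch 2 (edgeR adjusted p = 1.00 and 0.659).

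Cd3g, the gamma chain, measured 275 and 293 CPM in wildtype 1 and 2 against 215, 249 and 199 CPM in knockout 1, 2 and 3. In batch 2 both wildtype libraries measured 310 CPM and both knockout libraries 355 CPM. Here too the knockout libraries were all lower in batch 1 and all higher in batch 2. The log2 fold change was -0.49 ± 0.36 (SE) in batch 1, the lowest of the 9 members, and 0.20 ± 0.09 in batch 2 (edgeR adjusted p = 1.00 and 0.677).

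Cd247 encodes the zeta chain, which carries most of the phosphorylated motifs of the complex. In batch 1 wildtype 1 and 2 had 296 and 277 CPM, and knockout 1, 2 and 3 had 299, 315 and 248 CPM, so the groups overlapped in batch 1. In batch 2 it measured 299 and 291 CPM in wildtype 3 and 4 against 329 and 333 CPM in knockout 4 and 5, with no overlap. Its fold changes on the log2 scale were -0.13 ± 0.37 (SE) and 0.17 ± 0.10 in batch 1 and 2 (edgeR adjusted p = 1.00 and 0.718).

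Cd4, the coreceptor that binds class II molecules and brings Lck to the receptor, measured 1143 and 1111 CPM in wildtype 1 and 2 against 925, 937 and 1033 CPM in knockout 1, 2 and 3. In batch 2 wildtype 3 and 4 measured 1152 and 1308 CPM, and knockout 4 and 5 measured 1307 and 1321 CPM. The groups did not overlap in batch 1, and in batch 2 wildtype 4 lay with the knockout libraries. With TMM scaling factors applied to the CPM, both knockout libraries of batch 2 were above both wildtype libraries. The log2 fold change was -0.38 ± 0.36 (SE) in batch 1 and 0.10 ± 0.09 in batch 2 (edgeR adjusted p = 1.00 and 0.826).

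Cd28, the costimulatory receptor, stood in batch 1 at 307 and 222 CPM for wildtype 1 and 2 and at 251, 232 and 172 CPM for knockout 1, 2 and 3, and the groups overlapped. In batch 2 wildtype 3 and 4 measured 262 and 310 CPM, and knockout 4 and 5 measured 319 and 286 CPM, again with overlap. With Cd3d it had the widest within-group spread of the members, 0.25 on the log2(CPM + 1) scale.

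Lck, the kinase that starts the cascade, was measured in batch 1 at 350 and 264 CPM for wildtype 1 and 2 and at 344, 359 and 252 CPM for knockout 1, 2 and 3. In batch 2 its 4 values ran only from 441 CPM in wildtype 3 to 471 CPM in knockout 4. The groups overlapped in both batches, and the lowest library of batch 2 was above the highest of batch 1. The log2 fold change in batch 2 was 0.04 ± 0.09 (SE; edgeR adjusted p = 0.950), with a 95% interval from -0.19 to 0.27 on the log2 scale.

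Zap70, the kinase that binds the phosphorylated receptor chains, measured 159 and 161 CPM in wildtype 1 and 2 against 141, 144 and 156 CPM in knockout 1, 2 and 3, with no overlap. In batch 2 it measured 169 and 221 CPM in wildtype 3 and 4, on both sides of the 198 and 210 CPM in knockout 4 and 5. Lat, the membrane adaptor phosphorylated by ZAP-70, stood at 253 and 182 CPM for wildtype 1 and 2 and at 188, 204 and 232 CPM for knockout 1, 2 and 3. In batch 2 wildtype 3 and 4 measured 239 and 302 CPM, and knockout 4 and 5 measured 279 and 264 CPM, so its groups overlapped in both batches. Wildtype 4 was the highest library for both genes.

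**Figure D1:**
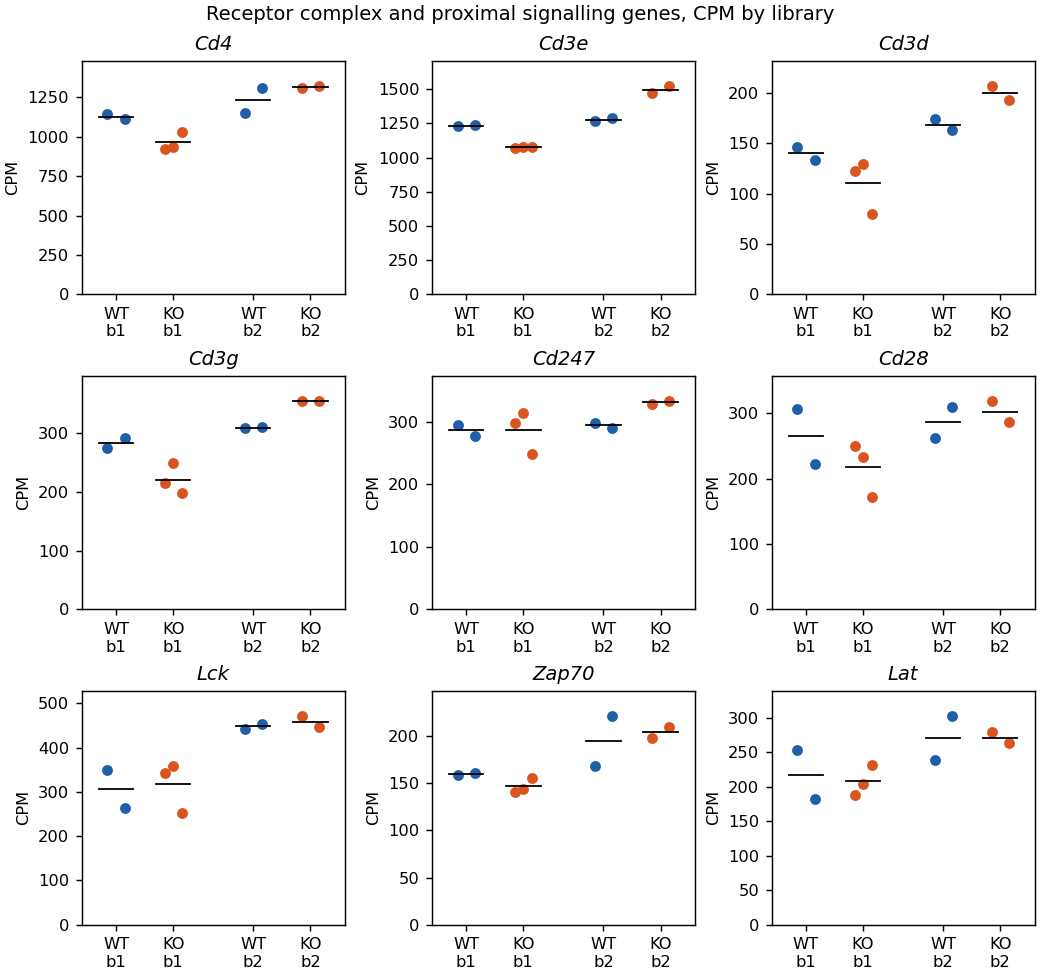
Level of each of the 9 genes in CPM (linear axis from 0) in every library; b1 and b2 are batch 1 and batch 2, blue points are wildtype (WT), orange points are labelled ERα knockout (KO) and black lines are group means. Cd3e, Cd3d and Cd3g lay lower in every KO than in every WT library in batch 1 and higher in batch 2.

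Read over both batches, with batch as a term and 22197 genes tested, the genotype difference was small for each member. The log2 fold changes ran from -0.14 ± 0.16 (SE) for Cd28 to 0.05 ± 0.12 for Cd247, each with an edgeR adjusted p of 1.00, and their 95% intervals lay between 0.711- and 1.26-fold. Cd247 and Lck (0.02 ± 0.14) were above 0 and the other 7 below. The median of the members was -0.06, beside 0.01 for all genes tested. By edgeR 0 members were called and 0 had an unadjusted p under 0.05, against 0.00451% of all genes called and 2.36% with an unadjusted p under 0.05. DESeq2 also called 0 members, against 0.0631% of all genes. Leaving out wildtype 1 moved Cd3e, Cd3d, Cd28 and Lat above 0, and moved the members' median to 0.02.

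These pooled values combined opposite signs in the batches. Within batch 1 all 9 log2 fold changes were below 0, from -0.49 for Cd3g to -0.09 for Lck, with a median of -0.34 beside 0.04 for the 24600 genes tested. Within batch 2 all 9 were above 0, from 0.01 for Lat to 0.25 for Cd3d, with a median of 0.10 beside -0.02 for 15910 genes. By edgeR 0 members were called in batch 1 and 0 had an unadjusted p under 0.05, against 0.126% and 1.97% of genes. DESeq2 called 0 members there, against 0.13% of genes. In batch 2 edgeR called 0 members, as it called 0% of genes, and 1 member, Cd3e, had an unadjusted p under 0.05, against 7.77% of genes. DESeq2 called 0 members in batch 2, against 2.07% of genes.

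The sign within batch 1 depended on the scaling for 2 genes. TMM scaling placed the median of all genes at 0.04 in batch 1, upper-quartile scaling at 0.11, DESeq2 size factors at -0.08 and plain library totals at 0.19. With plain library totals, an alternative chosen after seeing the data, Cd247 and Lck stood at 0.01 and 0.05 in batch 1, and the members' median was -0.19. Leaving out wildtype 1 turned Cd247, Cd28, Lck and Lat above 0 in batch 1. Leaving out knockout 3 turned Cd247 and Lck. That library had the most sensory receptor signal, and was also the only one of batch 1 with Ddx3y above 0 (55.4 CPM). The part of either in these signs was not tested.

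By CPM, every knockout library lay below every wildtype library of batch 1 for 5 members, Cd4, Cd3e, Cd3d, Cd3g and Zap70, a pattern found in 5.19% of all genes tested there. In batch 2 every knockout library lay above every wildtype library for 4 members, Cd3e, Cd3d, Cd3g and Cd247, against 19.6% of all genes. The 3 CD3 genes were in both sets by CPM, but with TMM scaling factors the groups of Cd3d overlapped in batch 1. The share of all genes in both sets was not counted, so the joint pattern has no background beside it. The proliferation markers Mki67, Top2a and Birc5 also differed between the groups of batch 2, with summed values of 2424 and 1251 CPM in wildtype 3 and 4 and 535 to 853 CPM in knockout 4 and 5. Wildtype 3 also held 444 CPM of the erythroid markers, against 16.2 to 23.9 CPM in the other libraries of batch 2, and 0 of the 9 members were above their batch mean in it. Other marker lists were also apart by genotype when summed. Among all genes tested in batch 2, 20.5% were lower and 19.6% higher in both knockout libraries with no overlap. In batch 1 these shares were 5.19% and 10.9%. In batch 2, knockout against wildtype libraries held 56.2 to 63.1 against 91.1 to 109 CPM of monocyte and macrophage markers. They held 3.55 to 5.02 against 15.2 to 101 CPM of neutrophil markers, and 2.61 to 3.66 against 5.94 to 9.26 CPM of dendritic cell markers. In batch 1 the genotypes overlapped on each of these lists. These are sums, and not every gene followed them in batch 2. Itgam, Cd68, S100a8, S100a9, Retnlg, Itgax and Xcr1 were lower in both knockout libraries than in both wildtype libraries. Lyz2, Csf1r, Adgre1, Ly6g, Flt3 and Zbtb46 overlapped, and Siglech was at 0 in wildtype 4 and in both knockout libraries. Summed NK cell markers were higher in the knockout libraries of both batches (19.95 to 31.17 against 14.3 to 14.6 CPM in batch 1, 17.3 to 18.3 against 13.5 to 17.0 CPM in batch 2). Eomes was the highest gene of this list in every library. Only Eomes and Klrb1c were higher in each knockout library of batch 1, and Ncr1 and Klre1 overlapped. No gene of the list was above both wildtype libraries in both knockout libraries of batch 2. Eomes, Klrb1c and Ncr1 overlapped there, and Klre1 was lower (0.111 and 0.165 against 0.558 and 0.244 CPM). Summed CD8 markers were lower in the knockout libraries of both batches. They measured 9.71 to 12.8 against 14.96 to 18.88 CPM in batch 1 and 10.6 to 10.9 against 11.2 to 11.5 CPM in batch 2. In batch 1 Cd8b1 was lower in each knockout library, but Cd8a overlapped. Cd8a measured 1.33 and 4.26 CPM in wildtype 1 and 2 and 2.53, 3.90 and 5.13 CPM in knockout 1, 2 and 3. The part of these markers in the members' values was not tested.

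**Figure D2:**
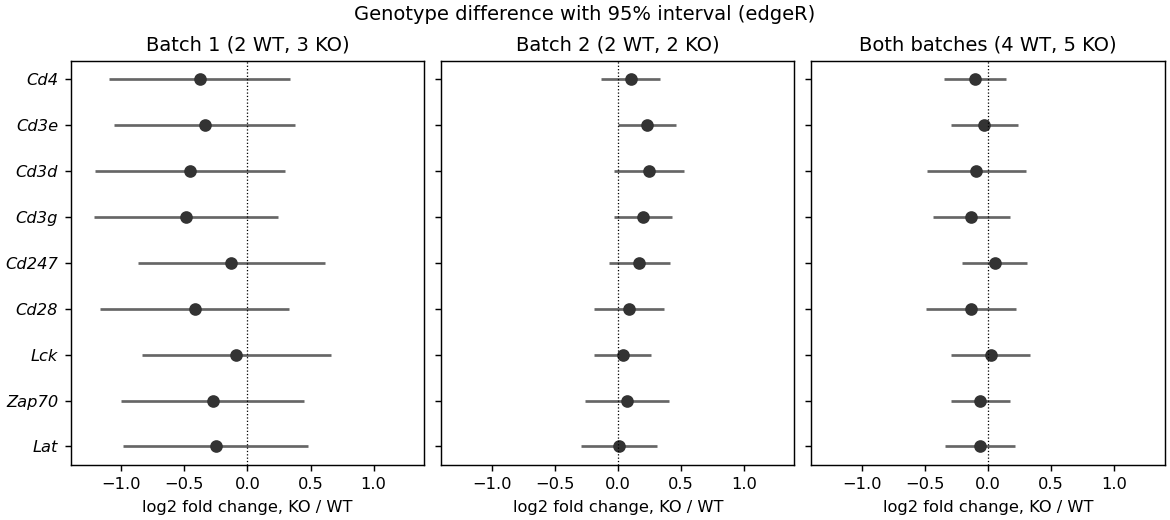
Log2 fold change of KO over WT for each gene (points) with its 95% interval from edgeR's quasi-likelihood fit (lines), within batch 1, within batch 2 and over both batches. With TMM scaling, points lie below 0 in batch 1 and above 0 in batch 2 for all 9 genes (with plain library totals Cd247 and Lck stood above 0 in batch 1), and among the intervals shown only that of Cd3e in batch 2 leaves out 0.

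A model with an interaction term, over 22197 genes, tested whether the batches differed in the genotype effect. The interaction is the log2 fold change in batch 2 minus that in batch 1, both taken from this model. The separate fits of each batch had their own filters and scaling factors, so the difference of their values is not the same. It was 0.46 ± 0.20 (SE) for Cd3e, 0.59 ± 0.23 for Cd3g and 0.61 ± 0.32 for Cd3d, with edgeR adjusted p-values of 0.591, 0.591 and 0.609. With the default filter it was above 0 for all 9 members, down to 0.02 for Lck, with a median of 0.36 beside -0.19 for all genes tested. By edgeR 0 members were called, against 0.00451% of genes, and 2, Cd3e and Cd3g, had an unadjusted p under 0.05, against 8.36% of genes. DESeq2 called 1 member, Cd3e, with a value of 0.47 and an adjusted p of 0.00721, and called 0.752% of genes. A further fit took only genes with a mean of at least 10 CPM, a restriction chosen after seeing the data. The edgeR value of Cd3e was then 0.40 ± 0.17 (SE) with an adjusted p of 0.576. Lck stood at -0.04 ± 0.22 (SE) in that fit, so not all 9 members were above 0 there.

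The balance between the members was followed by dividing each gene's count by that of Cd3e in the same library, which removes library size and scaling. Cd4 ran from 86.3 to 101.8% of Cd3e counts, with the highest value in wildtype 4. In batch 2 it was 91.0 and 101.8% in wildtype 3 and 4 and 88.8 and 86.8% in knockout 4 and 5, with no overlap. Lck was 34.9 and 35.3% of Cd3e in wildtype 3 and 4 and 32.0 and 29.3% in knockout 4 and 5, also apart, but in batch 1 its wildtype values of 28.5 and 21.4% overlapped with the 32.1, 33.4 and 23.4% of knockout 1, 2 and 3. Cd3g and Cd247 were likewise lower against Cd3e in both knockout libraries of batch 2, so 4 of the 8 genes were lower there with no overlap. This was also so for 47.3% of all genes tested in batch 2, where Cd3e itself was higher in both knockout libraries, and so the count is near the background.

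Cd3d was the most uneven subunit against Cd3e. It ran from 7.37% in knockout 3 to 14.1% in knockout 4, a 1.91-fold range, while Cd3g ran over a 1.33-fold range from 18.5% in knockout 3 to 24.5% in wildtype 3. Cd247 ran from 21.9 to 29.2% and was highest in knockout 2. Zap70 lay between 13.0 and 14.4% in 8 libraries and at 17.2% in wildtype 4, and was the only one of the 8 genes whose ratios did not overlap in batch 1, with all 3 knockout libraries above both wildtype libraries, as for 22.1% of all genes tested there. Cd28 (15.9 to 24.9%) and Lat (14.8 to 23.5%) showed overlapping genotypes in both batches. Knockout 3 was thus the lowest library for Cd3d, Cd3g and Cd28 against Cd3e, but was not low for Cd4 (95.7%) or Zap70 (14.4%). Its Lck (23.4%) and Cd247 (23.0%) were also below those of knockout 1 and 2, though above those of wildtype 2 (21.4 and 22.5%).

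**Figure D3:**
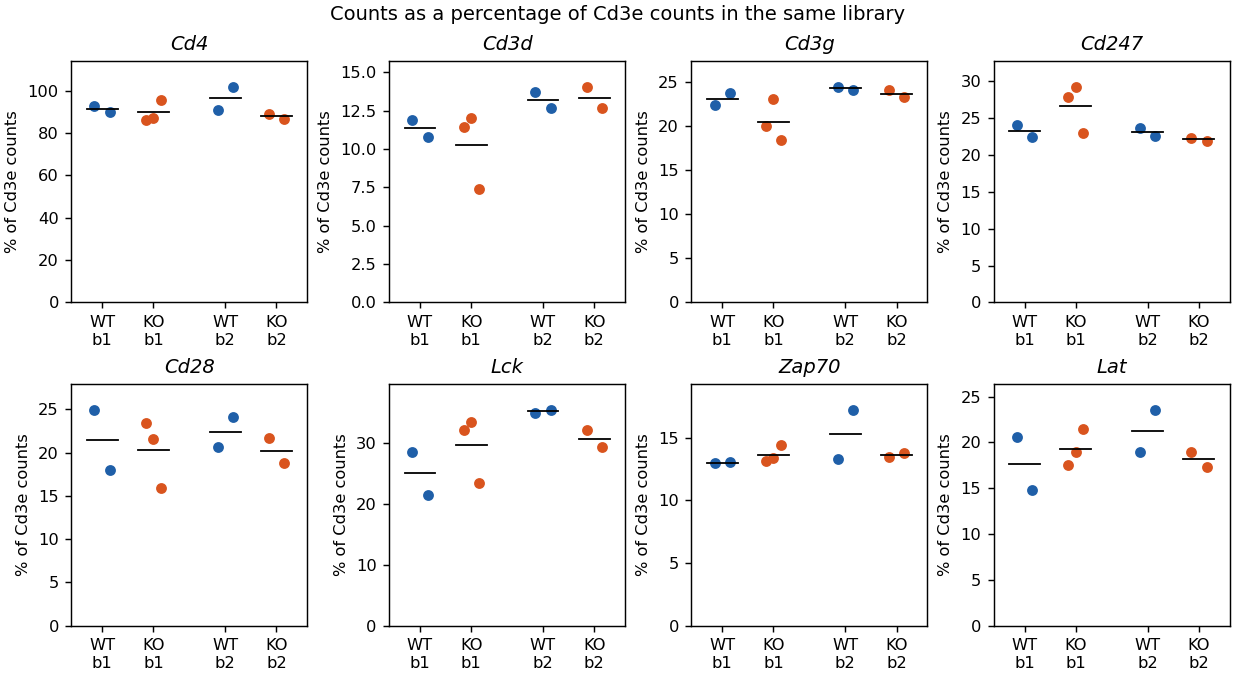
Counts of each gene as a percentage of the Cd3e counts in the same library (linear axes from 0); points are libraries coloured as WT (blue) and KO (orange) in batch 1 (b1) and batch 2 (b2), and lines are group means. Lck is apart by genotype in batch 2 but not in batch 1, Cd3d has its lowest point at 7.37% and Zap70 its highest at 17.2%.

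Across the 9 libraries, with each gene centred on its batch mean of log2(CPM + 1), the 36 pairs of members had Pearson correlations from -0.28 to 0.83 with a median of 0.39. Cd3g went most closely with Cd3d (0.83) and Cd3e (0.82), while Cd3d and Cd3e reached 0.59. Cd3d went about as closely with Cd247 (0.82) and Cd28 (0.81), which lie on another chromosome, and Cd4 went most closely with Zap70 (0.83). The lowest value was between Cd4 and Lck (-0.28), although the CD4 tail carries the Lck protein. These correlations describe 9 libraries, and the genotype difference is part of them. The genes of a library also share its depth. By library, wildtype 1 had all 9 members above the batch mean, by 0.19 on average on the log2 scale. Knockout 3 had 3 of 9 above, with a mean deviation of -0.19.

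Per length, Cd3e was the most abundant member, with a median of 844 CPM per kb of transcript over the 9 libraries and a range of 733 to 1041. Lengths were medians over the GENCODE M21 transcripts of each gene, which need not be the models the authors counted. Then came Cd4 at 368, Cd3g at 287, Lat at 195, Lck at 170, Cd247 at 132, Cd3d at 90.7, Zap70 at 71.7 and Cd28 at 60.3 CPM per kb. Below Cd3e, the ranges of neighbours overlapped when all libraries were pooled. Within single libraries the order held in all 9 for each pair of neighbours except Lat over Lck (6 of 9 libraries) and Cd3d over Zap70 (8 of 9). The place of Cd247 depended on its isoform, from 101 CPM per kb with the longest transcript to 227 with the shortest. The level of Cd3e lay above that of each other member in every library.

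All 9 members were higher in batch 2 than in batch 1 with the default filter and TMM scaling. The log2 fold changes ran from 0.35 ± 0.12 (SE) for Cd247 to 0.80 ± 0.18 for Cd3d, with edgeR adjusted p-values from 0.000477 for Zap70 to 0.0220 for Cd247. edgeR called 64.1% of all genes between batches and 16.8% as higher in batch 2, and the median of all genes was -0.76. Among the 9454 genes with a mean of at least 10 CPM, a restriction chosen after seeing the data, that median was 0.02. With that restriction edgeR called 3 members as higher in batch 2, against 5.65% of genes: Lck at 0.49 ± 0.10 (SE; adjusted p = 0.0111), Cd3d at 0.54 ± 0.15 (adjusted p = 0.0357) and Zap70 at 0.33 ± 0.10 (adjusted p = 0.0465). The members' median was then 0.30. With upper-quartile scaling 6 of 9 members were called, against 6.1% of genes called as higher, and with plain library totals 6 of 9, against 5.38%. By CPM every library of batch 2 was above every library of batch 1 for 6 members, Cd4, Cd3e, Cd3d, Cd3g, Lck and Zap70, against 5.01% of genes, while Cd247, Cd28 and Lat overlapped. Depth, sensory receptor signal, neutrophil markers and, but for knockout 3, the sex of the cells also separated the batches, and their part in this difference cannot be told apart from the batch.

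The rest of the pathway was read from a list of 52 genes, of which 49 were matched in the table. The receptor chain genes Trac, Trbc1 and Trbc2 were not analysed here. Between genotypes edgeR called 0 of the 49 over both batches, with 1 higher and 1 lower at an unadjusted p under 0.05, against 1.19% and 1.16% of all genes. The number that DESeq2 called was also 0. Within batch 1 edgeR called 0 of 49, with 0 higher and 1 lower at an unadjusted p under 0.05, against 1.34% and 0.63% of genes. Within batch 2 it called 0 of 48, with 5 higher and 0 lower, against 2.8% and 4.97% of genes. The list's log2 fold changes had a median of -0.22 in batch 1, with 39 of 49 below 0, and of 0.09 in batch 2, with 34 of 48 above 0. Across all genes tested, 11376 of 24600 were below 0 in batch 1 and 7603 of 15910 above 0 in batch 2. The count in batch 1 depended on the scaling: 33 of 49 were below 0 with upper-quartile scaling, 30 with plain library totals and 47 with DESeq2, where 9664, 7830 and 13986 of the 24600 genes were. In batch 2 these settings gave 37, 34 and 34 of 48 above 0. The list was also read by overlap in CPM, as the members were. In batch 1 every knockout library lay below every wildtype library for 8 of 49 genes (16.3%), against 5.19% of all genes. For 2 of 49 every knockout library lay above, against 10.9%. In batch 2 every knockout library lay above for 16 of 48 genes (33.3%), against 19.6% of all genes, and below for 3, against 20.5%.

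By role, all 10 adaptors of the list were below 0 in batch 1 and 8 of 10 above 0 in batch 2, with none past the threshold. In batch 1, 9 of 10 were below 0 with upper-quartile scaling or plain library totals. Trat1, a transmembrane adaptor of the receptor complex, stood at -0.53 and 0.14 on the log2 scale in batch 1 and 2, and Themis, which acts in T cell selection, at -0.40 and -0.03. Lcp2, the SLP-76 adaptor recruited to LAT, stood at -0.23 and 0.11 and its bridge to LAT, Grap2 (GADS), at -0.27 and 0.08.

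The kinases named from the list gave small values. The log2 fold changes of Fyn, a Src-family relative of Lck, were -0.06 in batch 1 and 0.05 in batch 2. Csk, which holds Lck inactive, stood at 0.05 and 0.12. Of the negative regulators and phosphatases, 10 of 13 were below 0 in batch 1 with TMM, 7 with upper-quartile scaling, 5 with plain library totals and 13 with DESeq2, and 8 of 13 were above 0 in batch 2 with TMM. Ptprc (CD45), which removes the inhibitory phosphate from Lck, stood at -0.27 and 0.13, Ptpn22, a phosphatase that acts on Lck and ZAP-70, at -0.06 and 0.23, and Ubash3a, another negative regulator of receptor signalling, at -0.25 and 0.19.

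The effectors below LAT were below 0 for 9 of 12 genes in batch 1 with TMM (8 with upper-quartile scaling, 7 with plain library totals, 12 with DESeq2) and above 0 for 9 of 12 in batch 2. Plcg1, which generates the second messengers for calcium and protein kinase C, stood at 0.01 and 0.07 on the log2 scale. Vav1, an exchange factor for Rac, stood at -0.28 and 0.13, Rasgrp1, an exchange factor for Ras, at -0.38 and 0.03, and Prkcq, the protein kinase C theta of the synapse, at -0.28 and 0.13. None of these passed the threshold.

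Coreceptors and costimulatory receptors were mixed. Cd6, a receptor that tunes T cell activation, stood at 0.18 in batch 1, 0.32 in batch 2 and 0.30 ± 0.12 (SE) over both batches, with an unadjusted edgeR p of 0.0266 and an adjusted p of 1.00. Cd8b1, the CD8 beta chain, named after its values were seen, was the gene of the list on the lower side at that level. It stood at -1.02 ± 0.43 (SE) in batch 1, -0.06 ± 0.19 in batch 2 and -0.52 ± 0.21 over both batches, each with an edgeR adjusted p of at least 0.962. Its level was 13.6 to 14.6 CPM in wildtype 1 and 2 and 7.18 to 8.15 CPM in the 3 knockout libraries of batch 1. Cd5, an inhibitory receptor, stood at 0.02 and 0.13, the adhesion receptor Cd2 at -0.25 and 0.01, and the costimulator Icos at -0.44 and -0.10 in batch 1 and 2. Slamf6, a receptor of the SLAM family, was the single gene of the list that DESeq2 called, within batch 2 (edgeR value 0.39 ± 0.09; adjusted p = 0.618 by edgeR and 0.0393 by DESeq2) and for the interaction (edgeR value 0.69 ± 0.21; adjusted p = 0.474 by edgeR and 0.0119 by DESeq2). Cd8a, the coreceptor of the other T cell lineage, was at 1.33 to 5.13 CPM in batch 1 and at 0 to 0.16 CPM in batch 2.

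**Figure D4:**
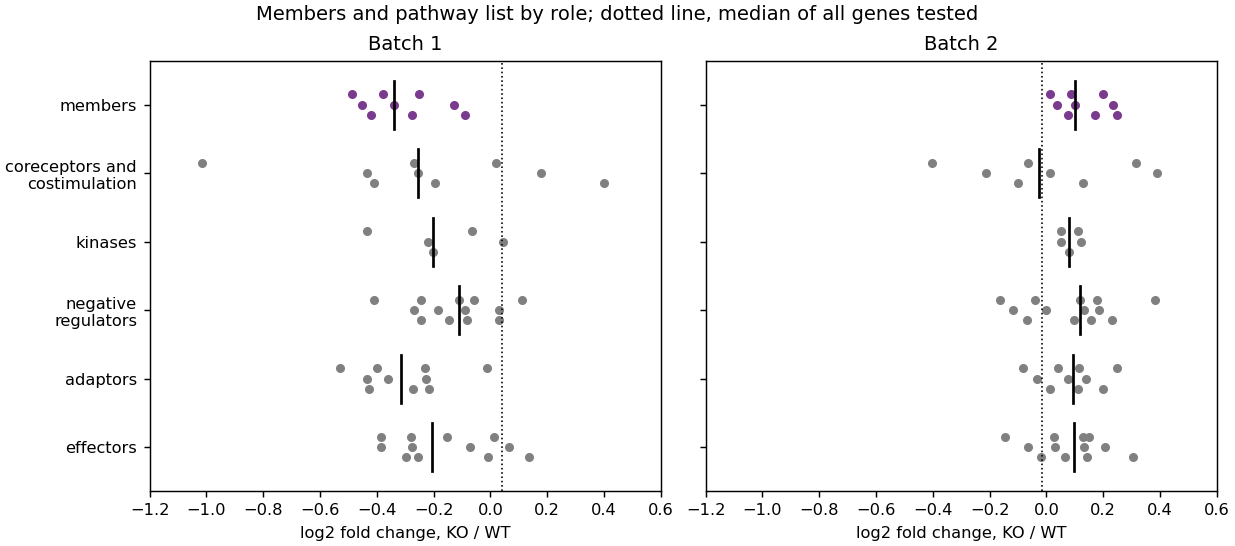
Log2 fold change of KO over WT within batch 1 and batch 2 for the 9 members (purple) and the pathway list grouped by role (grey); points are genes, black bars are medians of each row and the dotted line is the median of all genes tested. With the TMM scaling plotted, adaptors lie below 0 for all 10 genes in batch 1 (9 of 10 with plain library totals) and above 0 for 8 of 10 in batch 2.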

How the data were processed

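Per the file headers, the deposited table gives an estimated count (expected count) for each gene in each of the 9 libraries, with its Entrez identifier and symbol. The submitters' processing notes name Salmon 1.2.0, R 4.0.3 and build GRCm39 but assign them no role. Annotation, strand setting and the step from transcripts to genes were not given in the sources used here. Nonzero values were fractional, so scaling by transcript length is possible, and values were rounded for the count models. With no strand setting known, reads of overlapping genes cannot be told apart.

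CPM are counts divided by library totals (4926347 to 69844721). edgeR 4.0.16 (R 4.3.3) was run with TMM, its default filter (minimum count 10, minimum total 15), the robust quasi-likelihood test and Benjamini-Hochberg adjustment at 0.05, over both batches with a batch term, within each batch, and for the interaction and the batch term. Within-batch filters kept different numbers of genes. Each standard error is the log2 fold change divided by the root of its F statistic. Alternatives were DESeq2 1.42.0, upper-quartile scaling, plain library totals, no filter, genes with a mean of at least 10 CPM, no batch term, a replicate block, 1 model over 9 samples, and leaving out each library. The statistics were tested on simulated data. Members and lists were chosen with earlier results of these data known. Genes named are the 9 members, a fixed part of the pathway list (of which Trac was not analysed here and 1 other gene is not reported here), list genes past a threshold (Slamf6, by DESeq2 only), and the 5 genes most like the members. Promoters come from a RefSeq table on GRCm38.p6, another build than the files'. Protein sequences were not used here.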

Additional observations from a re-analysis of the deposited data

Results flagged for a closer look

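Zap70 in wildtype 4 measured 221 CPM, far above the other 3 wildtype libraries (159 to 169 CPM), with a gap of 0.849 of the group's whole range. The 4 wildtype libraries span both batches. Of the 18 groups examined this was the only one with such a gap, and chance gives about 1 in 20.

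The genotype difference of Cd3e differed between the batches by DESeq2, with an interaction of 0.47 on the log2 scale and an adjusted p of 0.00721. edgeR gave 0.46 with an adjusted p of 0.591. All 3 knockout libraries of batch 1 were below both wildtype libraries there, and both knockout libraries of batch 2 were above both wildtype libraries there.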

How the results depend on the processing

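Between genotypes, over both batches and within each, edgeR and DESeq2 called 0 members under every alternative run. The lowest adjusted p over these alternatives was 0.814 over both batches, 0.619 in batch 1 and 0.151 in batch 2. DESeq2 called 1 member for the interaction, Cd3e, where edgeR called 0 under each of its alternatives. Called as higher in batch 2 were 9 members, or 3 with only genes of a mean CPM of at least 10 (chosen after seeing the data), 6 with upper-quartile scaling or library totals, 7 without wildtype 2 or knockout 4, and 8 without wildtype 1 or knockout 5; the cause was not tested.

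Signs of log2 fold changes between genotypes, over both batches and within each, turned in these cases. Over both batches Cd247 was -0.029 and Lck -0.068 with no filter, and Lck -0.053 with no batch term. In batch 1 Lck was 0.012 with 1 model over the 9 samples. With library totals Cd247 was 0.0067 and Lck 0.053 in batch 1. With genes of a mean CPM of at least 10, Lck was 0.042 in batch 1 and Lat -0.016 in batch 2. With a replicate block Cd3d was 0.019 over both batches, and Cd247 was 0.090 and Lck 0.20 in batch 1. Same-numbered samples did not deviate together (r = 0.43, -0.45, -0.083 and -0.13), and the block changed no call on members; in batch 2, with 1 shared number, no block could be fitted.

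Leaving out 1 library at a time gave, over both batches, -0.16 to 0.020 for Cd3e, -0.21 to 0.018 for Cd3d, -0.081 to 0.10 for Cd247, -0.33 to 0.024 for Cd28, -0.19 to 0.12 for Lck and -0.30 to 0.050 for Lat. In batch 1 it gave -0.35 to 0.097 for Cd247, -0.79 to 0.029 for Cd28, -0.44 to 0.32 for Lck and -0.63 to 0.20 for Lat. In batch 2 it gave -0.076 to 0.23 for Zap70 and -0.12 to 0.14 for Lat. A lone library left in a group is assumed to vary like the others. Cd4, Cd3e, Cd3d, Cd3g and Zap70 stayed below 0 in batch 1, and Cd4, the CD3 genes, Cd247, Cd28 and Lck above 0 in batch 2, under every alternative run within those batches. Over all genes, edgeR and DESeq2 together called between 0 and 14 genes over both batches (1 by edgeR as reported), 3 and 118 in batch 1 (31), 0 and 879 in batch 2 (0), 1 and 238 for the interaction (1) and 1728 and 25837 between batches (14221). The lowest member count in a library was 403, for Cd3d in knockout 3, above the floor of 3 counts.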

Other observations

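Of 8646 genes with a mean of at least 10 CPM outside the members and the pathway list, 5 followed the members' mean most closely, with each value centred on its batch. These were Snrk, a kinase of the SNF1 family (Pearson r = 0.96), Trim12a (0.96), Tnrc6a, a protein of the microRNA silencing complex (0.96), Cd96, a receptor of T and NK cells (0.96) and Sp100, a component of nuclear bodies (0.95). The values describe 9 libraries, and the 5 genes were the highest among many. Sp100 measured 813 and 717 CPM in wildtype 1 and 2 and 679, 686 and 547 CPM in knockout 1, 2 and 3. In batch 2 wildtype 3 and 4 measured 698 and 709 CPM, and knockout 4 and 5 measured 810 and 830 CPM. The choice of these genes fixed that they resemble the members, and by CPM the genotypes of Snrk and Trim12a overlapped in batch 1 and those of Cd96 in batch 2.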
